A study of Mus musculus with 12 samples.

Results

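The interferon-inducible GTPase genes Iigp1, Irgm1, Irgm2, Igtp, Gbp2, Gbp3 and Gbp7 were followed in left ventricle messenger RNA of 12 C57BL/6 mice. All 7 were found by symbol among the 17052 genes of the authors' table. They were chosen by the levels of Iigp1 and Gbp3, which had been seen to be higher in TAC+pimobendan than in TAC+control mice, so the members' values in that comparison are given as a description. Each of the 4 groups held 3 mice, and every library came from a separate mouse. TAC+pimobendan mice had transverse aortic constriction (TAC), in which the arch is narrowed so that the left ventricle pumps against a higher pressure, and oral pimobendan at 1 mg/kg/day for 4 weeks. TAC+control mice had the constriction with no drug named in their labels. Sham+pimobendan mice had surgery without the clip and the same oral dose, and Sham+control mice had the same surgery with no drug named. Surgery was done in all groups at 8 weeks of age and the ventricle was sampled at 12 weeks. Pimobendan raises the calcium sensitivity of troponin C and inhibits phosphodiesterase III, and the study was concerned with its effect on hypertrophy and MAP kinase signalling. Over the 12 libraries 593203 to 643478 FPKM were summed and 10809 to 11292 genes reached 1 FPKM; sequencing depth is unknown, since no counts are given.

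Interferon gamma binds a cell-surface receptor whose Janus kinases activate transcription factors, and type I interferons act through a related receptor with factors that include Stat2 and Irf9. Among the strongest targets in mouse cells are 2 families of GTPases, the immunity-related GTPases (Iigp1, Irgm1, Irgm2, Igtp) and the guanylate-binding proteins (Gbp2, Gbp3, Gbp7), which assemble on the membranes around intracellular parasites and bacteria. Iigp1 (also called Irga6) is an effector that coats the vacuole of a parasite, while Irgm1, Irgm2 and Igtp (also called Irgm3) are regulators that sit on the cell's own membranes and keep the effectors off them. Guanylate-binding proteins are larger GTPases that assemble on such vacuoles and take part in their rupture. They are best known from infected macrophages and fibroblasts.

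The DNA just upstream of the members is shown because it carries the element through which interferon acts on these families. RefSeq windows of 300 bases on GRCm38.p6, from 250 bases before to 50 bases after a transcription start, were at hand for 6 of the 7 members. The interferon-stimulated response element was searched on both strands as GAAANNGAAA, and it occurred in a window of all 6 members, as it did in 3.44% of 32851 windows of the genome and 2.88% of the windows of tested genes. For each, 60 bases around the matches are given in the direction of transcription, with matches in capitals (TTTCNNTTTC is the same motif on the other strand).
Irgm1: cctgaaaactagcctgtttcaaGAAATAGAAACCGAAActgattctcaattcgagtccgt
Irgm2: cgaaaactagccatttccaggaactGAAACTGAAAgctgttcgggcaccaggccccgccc
Igtp: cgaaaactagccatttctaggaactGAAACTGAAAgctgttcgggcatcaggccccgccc
Gbp2: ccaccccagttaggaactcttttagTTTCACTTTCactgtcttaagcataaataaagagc
Gbp3: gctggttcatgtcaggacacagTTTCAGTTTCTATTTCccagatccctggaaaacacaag
Gbp7: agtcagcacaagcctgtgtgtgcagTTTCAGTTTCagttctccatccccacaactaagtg

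These stretches are chr11:48871413-48871472 (minus strand) for Irgm1, chr11:58214888-58214947 for Irgm2 and chr11:58199497-58199556 for Igtp. Those of the guanylate-binding proteins are chr3:142620579-142620638 for Gbp2, chr3:142559977-142560036 for Gbp3 and chr3:142530258-142530317 for Gbp7, all on the plus strand. The motif began 30 bases before the start in Irgm1 (at -30, with an overlapping match at -24) and 34 bases before it in Igtp (at -34). The matches began at -64 in Irgm2, at -59 in Gbp2, at -53 in Gbp7, and at -45 and -39 in Gbp3, whose second, downstream window held none. The Irgm2 and Igtp windows shared an unbroken run of 61 bases, and 50.17% of the 12-base words of Igtp occurred in Irgm2. The palindrome TTCNNNGAA, known as the gamma-activated site, was found in the windows of Irgm2, Igtp and Gbp7 (3 of 6 members), against 8.30% of all windows. In Irgm2 it lay just before the response element, from -75 to -67, and in Igtp likewise from -45 to -37, while Gbp7 had it at -106 and again at -87. A match of letters is a description of the sequence and not a bound site.

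The members lay at 3 places in the GRCm38 genome, by the coordinates in the authors' table. Gbp7 (NCBI Gene 229900, chr3:142530336-142550151), Gbp3 (55932, chr3:142560016-142573213) and Gbp2 (14469, chr3:142620663-142638008) stood on the plus strand within 107.673 kb. Igtp (16145, chr11:58199556-58207592) and Irgm2 (54396, chr11:58214946-58222783) were plus-strand neighbours 7.353 kb apart, and Irgm1 (15944, chr11:48865245-48871454) stood on the minus strand of the same chromosome 9.328 Mb away. Iigp1 (60440, plus strand) occupied positions 60373621 to 60392634 of chromosome 18. In GENCODE M21 the span of Irgm2 (58199618 to 58222782) covers most of Igtp on the same strand, so reads of these neighbours could have been divided by the authors' counting.

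Expression is given as FPKM, a fragment count corrected for transcript length and library size, which can be set side by side between genes. In the 9 libraries of the other 3 groups Igtp (11.11 to 18.52 FPKM), Irgm1 (9.05 to 15.82 FPKM), Irgm2 (6.16 to 12.80 FPKM), Gbp2 (7.5 to 11.24 FPKM) and Iigp1 (5.46 to 10.02 FPKM) lay close together. Gbp3 (1.79 to 3.47 FPKM) and Gbp7 (0.60 to 1.49 FPKM) were lower. All 7 members passed the filter of at least 1 FPKM in at least 3 libraries. Gbp7 passed it through its TAC+pimobendan libraries, as only 2 of its 5 libraries at or above 1 FPKM belonged to the other groups. In whole ventricle a change in the share of a cell type and a change in RNA per cell cannot be told apart.

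The effector Iigp1 had 12.28, 23.08 and 77.78 FPKM in TAC+pimobendan mice (37.7 ± 35.1, SD, n = 3), against 5.46, 8.37 and 6.74 FPKM in TAC+control mice (6.86 ± 1.46). It had 8.01, 8.08 and 6.90 FPKM in Sham+pimobendan mice (7.66 ± 0.66) and 10.02, 9.92 and 6.80 FPKM in Sham+control mice (8.91 ± 1.83). All 3 TAC+pimobendan libraries lay above all 9 others for this gene alone among the 7, a pattern that 4.82% of the tested genes had. The other 3 groups overlapped one another.

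The regulator Irgm1, which is needed for autophagy of invading bacteria and for the upkeep of mitochondria, had 12.98, 15.55 and 34.04 FPKM in TAC+pimobendan mice, against 9.90, 10.81 and 9.05 FPKM in TAC+control mice. Its Sham+pimobendan libraries held 15.82, 13.54 and 12.45 FPKM and its Sham+control libraries 12.11, 11.88 and 11.52 FPKM. The first 2 TAC+pimobendan mice were thus above the TAC+control mice but within the range of the Sham+pimobendan mice. Irgm2, a regulator that restrains inflammasome activation by bacterial lipopolysaccharide, had 11.28, 10.02 and 40.33 FPKM in TAC+pimobendan mice, against 10.12, 6.16 and 6.52 FPKM in TAC+control mice. Its levels were 12.80, 11.51 and 9.32 FPKM in Sham+pimobendan mice and 8.15, 10.31 and 9.02 FPKM in Sham+control mice, so replicate 3 alone left the range of the other groups. Igtp, a regulator found on the endoplasmic reticulum and lipid droplets, had 15.03, 11.77 and 68.70 FPKM in TAC+pimobendan mice, against 13.39, 11.11 and 11.72 FPKM in TAC+control mice. Sham+pimobendan mice had 14.17, 14.08 and 18.52 FPKM of Igtp and Sham+control mice 12.50, 14.81 and 12.08 FPKM. Replicate 3 again stood alone, with 3.71 times the level of the next highest library.

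Among the guanylate-binding proteins that are members, Gbp2 had the highest level. It had 8.68, 11.57 and 21.95 FPKM in TAC+pimobendan mice, against 8.19, 11.24 and 8.27 FPKM in TAC+control mice, with 7.5, 9.53 and 10.80 FPKM in Sham+pimobendan mice and 9.95, 8.03 and 9.86 FPKM in Sham+control mice. Its TAC+pimobendan replicate 1 was below the TAC+control mean and replicate 2 was 1.25 times that mean. Gbp3 had 3.09, 5.54 and 9.40 FPKM in TAC+pimobendan mice, against 1.96, 2.53 and 2.09 FPKM in TAC+control mice. Sham+pimobendan mice had 2.13, 2.63 and 1.79 FPKM of Gbp3 and Sham+control mice 3.47, 2.56 and 2.90 FPKM, so replicates 2 and 3 of TAC+pimobendan were above every other library and replicate 1 was within the Sham+control range. Gbp7, which in macrophages helps to assemble the phagocyte oxidase, had the lowest levels of the 7. It had 1.27, 3.00 and 5.19 FPKM in TAC+pimobendan mice, against 0.63, 1.41 and 0.66 FPKM in TAC+control mice, with 0.82, 0.92 and 0.60 FPKM in Sham+pimobendan mice and 1.49, 0.87 and 0.98 FPKM in Sham+control mice.

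**Figure D1:**
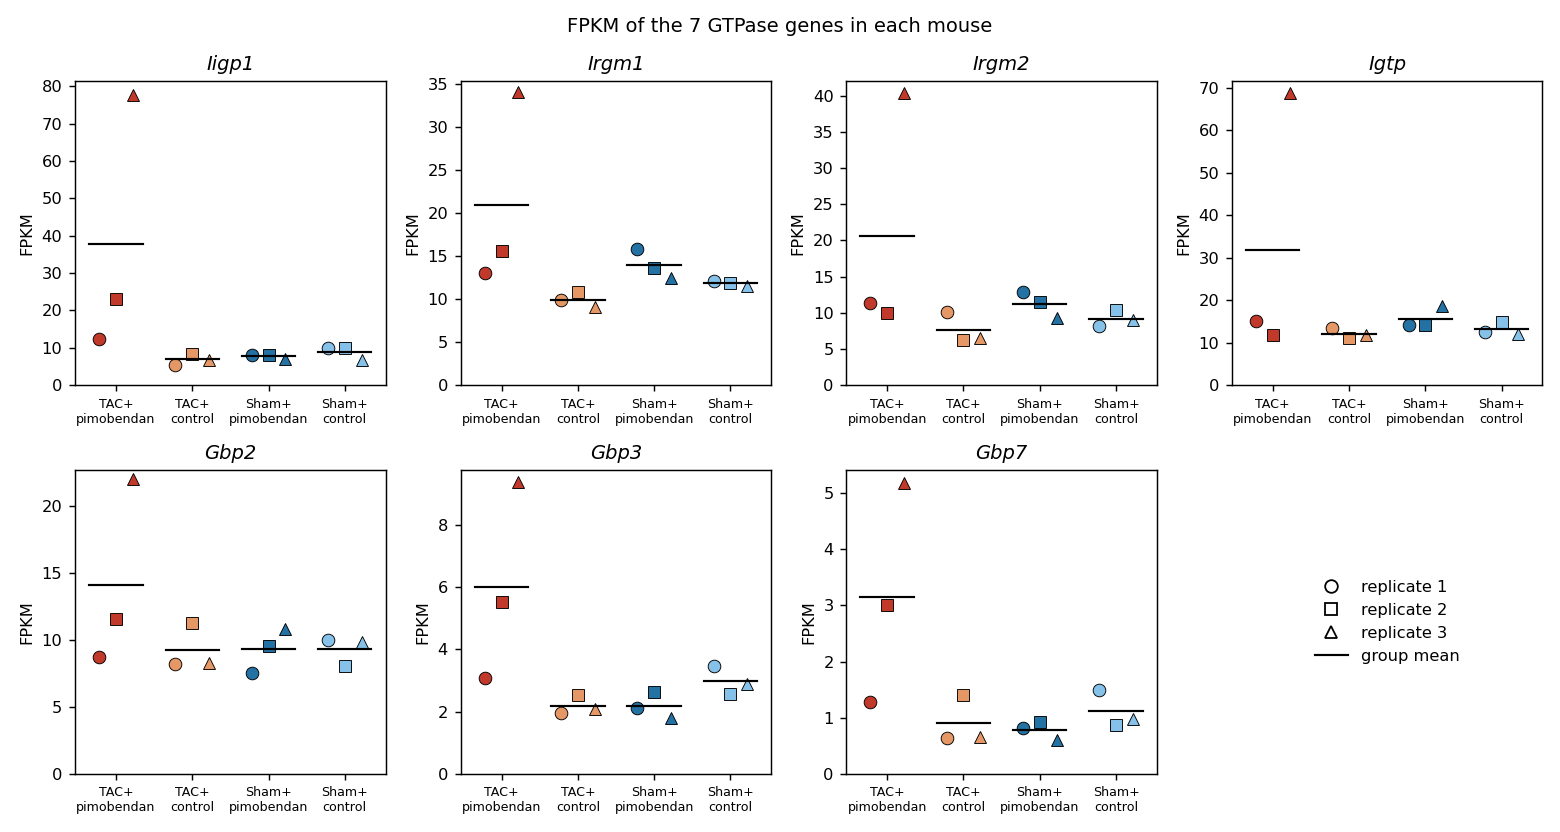
FPKM of the 7 members (vertical axes, linear from 0, scaled per gene) in each mouse of the 4 groups, with circles, squares and triangles for replicates 1, 2 and 3 and a line at the group mean. The triangle of TAC+pimobendan is the highest point of every panel, at 77.78 FPKM for Iigp1 and 5.19 FPKM for Gbp7.

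TAC+pimobendan replicate 3 was the highest of the 12 libraries for all 7 members, as it was for 16.7% of the tested genes. It exceeded the next highest library 3.71-fold for Igtp, 3.37-fold for Iigp1, 3.15-fold for Irgm2, 2.15-fold for Irgm1, 1.90-fold for Gbp2, 1.73-fold for Gbp7 and 1.70-fold for Gbp3. The coefficient of variation within TAC+pimobendan was between 49.6% (Gbp2) and 100.4% (Igtp), against a median of 10.9% over the tested genes. The 3 mice of that group gave 3 different pictures when set against the TAC+control mean. Replicate 1 was 1.79 times that mean for Iigp1 and between 0.940 and 1.48 times for the other 6. Replicate 2 was 3.37 times it for Iigp1, 3.33 times for Gbp7 and 2.53 times for Gbp3, and between 0.975 and 1.57 times for Irgm1, Irgm2, Igtp and Gbp2. Replicate 3 was 11.3 times it for Iigp1, 5.77 times for Gbp7, 5.69 times for Igtp and 5.31 times for Irgm2. It was 4.29 times the mean for Gbp3, 3.43 times for Irgm1 and 2.38 times for Gbp2.

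Summed over the 7 members, the libraries held 64.6, 80.5 and 257.4 FPKM in TAC+pimobendan mice, against 45.05 to 61.25 FPKM in the other 9. Iigp1 made up 19.0%, 28.7% and 30.2% of that sum in TAC+pimobendan mice, against at most 17.4% in the other 9 libraries. The makeup of the GTPase transcripts differed as well as their total, with Irgm1 at 13.2% of the sum in TAC+pimobendan replicate 3 and at 19.3% to 25.8% in the other 11 libraries.

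The comparison of TAC+pimobendan with TAC+control chose the members, so its fold changes are given with no test. On the log2(FPKM + 1) scale they were 1.92 ± 0.45 (SE) for Iigp1, 1.07 ± 0.38 for Irgm2, 1.04 ± 0.29 for Gbp7, 1.04 ± 0.25 for Gbp3, 0.90 ± 0.45 for Igtp, 0.88 ± 0.25 for Irgm1 and 0.47 ± 0.25 for Gbp2. The median was 1.04, against 0.0954 over the 11415 tested genes. Iigp1 and Gbp3, the genes behind the choice, were the 2 of 7 called at an adjusted p under 0.05 in limma, where 3.27% of all tested genes were called (360 higher and 13 lower). The choice fixed these calls, and nothing is read from their number. The 3 TAC+pimobendan libraries lay above all 3 TAC+control libraries for Iigp1, Irgm1 and Gbp3, as they did for 23.3% of the tested genes. Without TAC+pimobendan replicate 3 the fold changes were 1.2 for Iigp1, 0.70 for Gbp3, 0.69 for Gbp7, 0.48 for Irgm1, 0.46 for Irgm2, 0.13 for Igtp and 0.12 for Gbp2. In that fit 0 of the 7 were called, and 3 of all 11415 tested genes were. The libraries also differed in how their values followed the GC content of transcripts: Spearman's rho across genes was -0.201, -0.504 and -0.528 in TAC+pimobendan, against -0.350 to 0.530 in the other 9. The transcripts of Iigp1 had 39.3% GC and those of the other members 44.5% to 49.8%. With that trend removed from each library the fold change was 1.49 for Iigp1, between 0.67 and 0.89 for Irgm1, Irgm2, Igtp, Gbp3 and Gbp7, and 0.29 for Gbp2, and 0 of the tested genes were called.

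**Figure D2:**
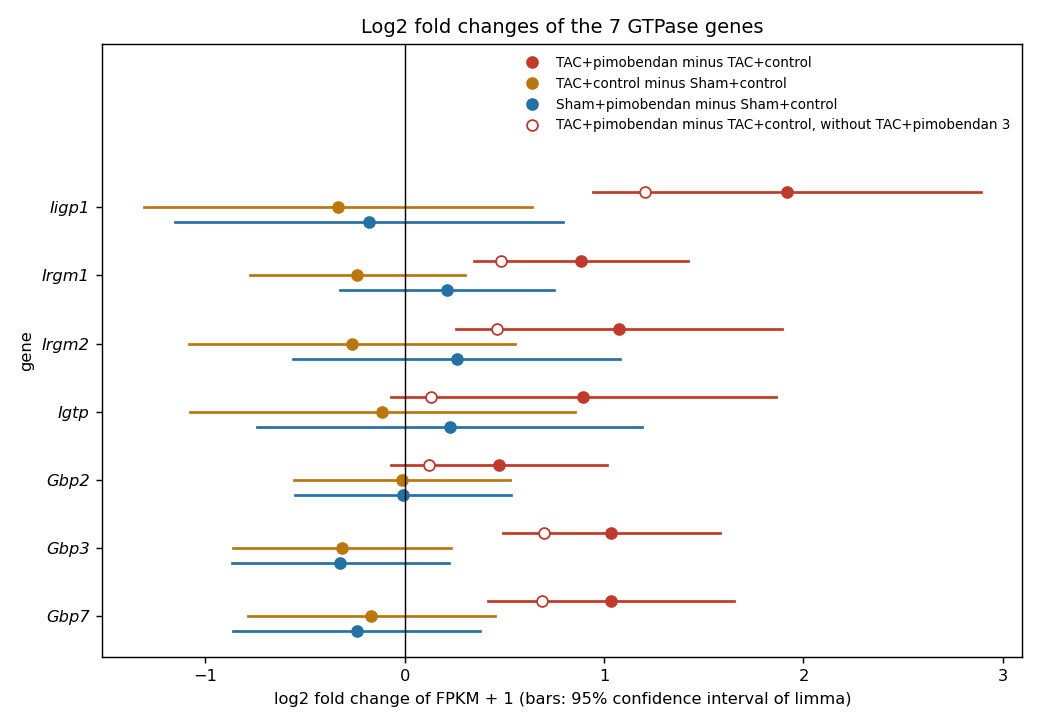
Log2 fold changes of FPKM + 1 (horizontal axis) with 95% confidence intervals of limma for each member (rows) in 3 comparisons, with open circles for TAC+pimobendan minus TAC+control when TAC+pimobendan replicate 3 is left out. Iigp1 lies farthest to the right at 1.92 and at 1.2 without that mouse, while the intervals of the other 2 comparisons cross 0 for every member.

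Constriction without drug was compared with sham surgery without drug, a comparison whose TAC+control libraries also entered the choice of members. No member passed the test (0 of 7, background 0.0% of 11415 genes; 951 genes had an unadjusted p under 0.05). All 7 point estimates were below 0, although that of Gbp2 was above 0 with median-ratio scaling, quantile normalization or removal of the GC trend, and their median was -0.24 against -0.057 over all tested genes. The estimates were -0.33 ± 0.45 for Iigp1 (95% interval -1.31 to 0.64, limma adjusted p = 0.847), -0.31 ± 0.25 for Gbp3 (-0.86 to 0.23, adjusted p = 0.747) and -0.24 ± 0.25 for Irgm1 (-0.77 to 0.30, adjusted p = 0.804). Irgm2 had -0.26 ± 0.38, Gbp7 -0.17 ± 0.29, Igtp -0.11 ± 0.45 and Gbp2 -0.014 ± 0.25, with limma adjusted p between 0.859 and 0.989. All 3 TAC+control libraries lay below all 3 Sham+control libraries for Irgm1 and Gbp3, as for 9.74% of the tested genes. The spread in this fit is shared by the 4 groups and so includes TAC+pimobendan replicate 3. Without that library the standard error of Irgm1 was 0.11 (adjusted p = 0.608) and that of Iigp1 0.21 (adjusted p = 0.693) in limma. There 0 of the 7 passed, and 1 of all tested genes did.

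Pimobendan in unloaded hearts was tested in sham mice, which lay outside the comparison that chose the members. Earlier results of these data were known when that choice was made. The spread in the fit is also shared with the TAC+pimobendan mice, and Gbp7 passed the filter through their libraries. Again 0 of 7 passed (background 0.0%; 518 genes had an unadjusted p under 0.05). Gbp3 had a log2 fold change of -0.32 ± 0.25 (95% interval -0.87 to 0.22, limma adjusted p = 0.910), Gbp7 -0.24 ± 0.29 and Iigp1 -0.18 ± 0.45 (-1.15 to 0.79). Irgm2 had 0.26 ± 0.38, Igtp 0.23 ± 0.45, Irgm1 0.21 ± 0.25 and Gbp2 -0.0080 ± 0.25, and adjusted p values for these 6 were between 0.928 and 0.998. The regulators Irgm1, Irgm2 and Igtp had positive estimates, while Iigp1, Gbp3 and Gbp7 had negative ones. Irgm1 alone had all 3 Sham+pimobendan libraries above all 3 Sham+control libraries, as 6.16% of the tested genes did. Without TAC+pimobendan replicate 3 the standard error of Iigp1 in this comparison was 0.21 (limma adjusted p = 0.923). There 0 of the 7 and 0 of all tested genes passed.

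The remaining comparisons rest on the same TAC+pimobendan libraries as the choice of members and are set beside it as values. Against Sham+pimobendan the log2 fold changes of TAC+pimobendan were 1.76 for Iigp1, 1.11 for Gbp7, 1.04 for Gbp3, 0.56 for Igtp, 0.55 for Irgm2, 0.47 for Gbp2 and 0.43 for Irgm1. The limma calls there (3 of 7, Iigp1, Gbp3 and Gbp7; background 4.89%) use the TAC+pimobendan values of the choice, without which Gbp7 would not have passed the filter, and nothing is read from them. For these 3 the groups did not overlap, as for 18.6% of the tested genes. Without TAC+pimobendan replicate 3 the values were 1.05 for Iigp1, 0.76 for Gbp7 and 0.71 for Gbp3, but 0.032 for Irgm1, -0.060 for Irgm2 and -0.20 for Igtp. In that fit none of the members was called, and 0 of all tested genes were. Against Sham+control they were 1.58 for Iigp1, 0.87 for Gbp7, 0.81 for Irgm2, 0.78 for Igtp, 0.72 for Gbp3, 0.65 for Irgm1 and 0.46 for Gbp2. There 0 of 7 were called in limma (background 0.0%; 1512 genes had an unadjusted p under 0.05), and Iigp1 and Irgm1 did not overlap, as for 10.2% of the genes. The difference between the drug's log2 changes after TAC and after sham was 2.10 for Iigp1, 1.36 for Gbp3, 1.28 for Gbp7, 0.81 for Irgm2, 0.67 for Irgm1, 0.67 for Igtp and 0.48 for Gbp2, with 0 called (background 0.0%; 2312 genes had an unadjusted p under 0.05).

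In the order of group means TAC+pimobendan came first for every member. Sham+control came second for Iigp1, Gbp2, Gbp3 and Gbp7, and Sham+pimobendan came second for Irgm1, Irgm2 and Igtp. TAC+control was the lowest group for Iigp1, Irgm1, Irgm2, Igtp and Gbp2. Sham+pimobendan was the lowest for Gbp3 and Gbp7. Neighbours in these orders overlapped except TAC+pimobendan and Sham+control for Iigp1, Sham+control and TAC+control for Irgm1 and for Gbp3, and Sham+pimobendan and Sham+control for Irgm1.

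How the members moved with one another depended on whether TAC+pimobendan replicate 3 was counted. Over the 12 libraries Pearson's r of log2(FPKM + 1) between members was 0.667 to 0.982, with a median of 0.840 over 21 pairs. Over the 11 libraries without it r was -0.473 to 0.952, with a median of 0.402. Within the families the chromosome 3 guanylate-binding proteins had r between 0.494 and 0.952 with one another and the chromosome 11 regulators between 0.267 and 0.701. Between those blocks r was -0.473 to 0.485, with a median of -0.049 over 9 pairs, so the blocks overlapped. Iigp1, on chromosome 18, had r between 0.402 and 0.907 with the guanylate-binding proteins and between -0.178 and 0.617 with the regulators, its own family. In the 9 libraries outside TAC+pimobendan Gbp3 and Gbp7 had the highest r of any pair at 0.844, and the median over all pairs was 0.123. Gbp3 and Gbp7 share 3.83% of the 50-base words of Gbp3 transcripts, and Igtp and Irgm2 share 11.8% of those of Igtp, so most words of these pairs occur in 1 of the 2 genes. These r values describe libraries that share their groups and GC trends.

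**Figure D3:**
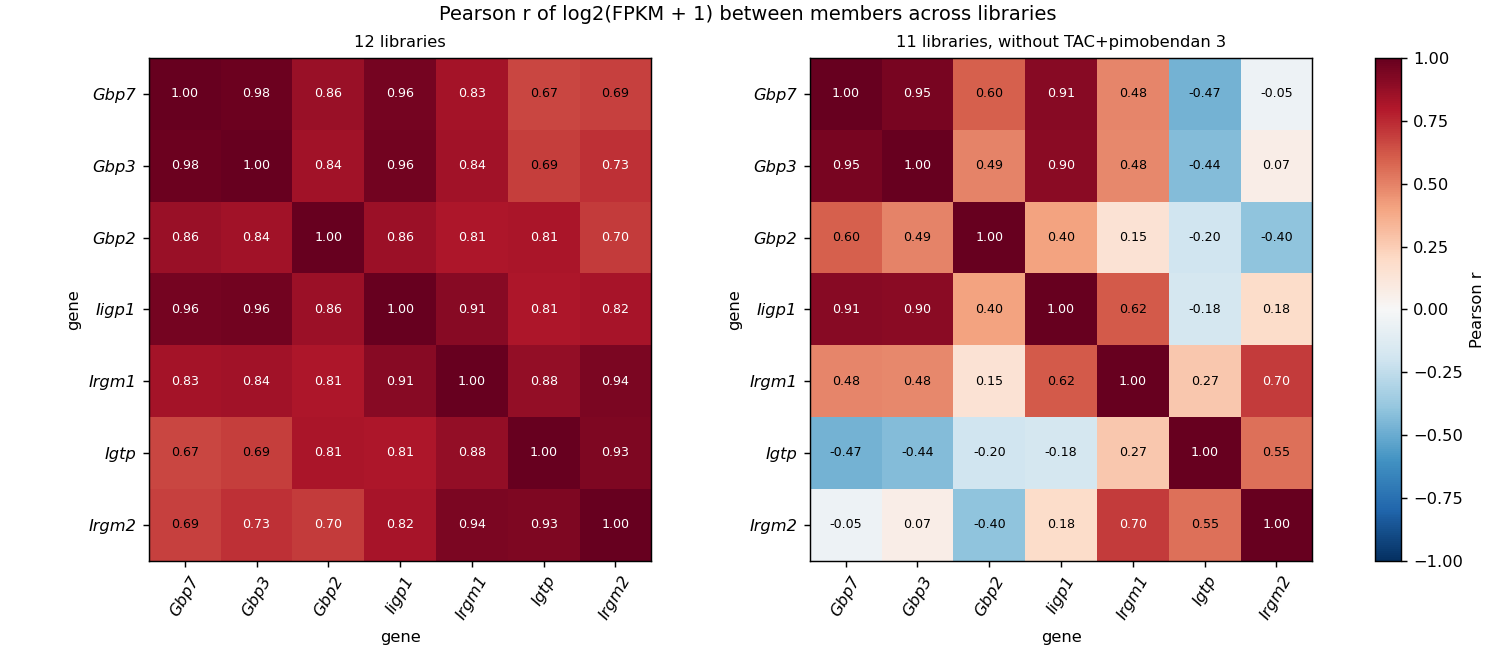
Pearson's r of log2(FPKM + 1) between members over all 12 libraries (left) and over the 11 without TAC+pimobendan replicate 3 (right), with genes ordered by chromosome. All cells are 0.67 or above on the left, while on the right r among Gbp7, Gbp3 and Iigp1 is 0.90 or above and r of Igtp with them is below 0.

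The other genes of the families were read for the same mice. Of 19 further family genes that were measured, 9 passed the filter. Of these 9, 8 were highest in TAC+pimobendan replicate 3, as were 16.7% of all tested genes, with Irgq as the exception. Gbp4 had 3.76, 5.15 and 15.12 FPKM in TAC+pimobendan mice, against 2.79, 3.46 and 2.79 FPKM in TAC+control mice and 2.16 to 3.5 FPKM in both sham groups. Gbp6 had 7.38, 8.84 and 35.57 FPKM in TAC+pimobendan mice, against 9.11, 5.35 and 4.16 FPKM in TAC+control mice. Gbp5 had 4.04, 4.89 and 10.56 FPKM in TAC+pimobendan mice, against 2.63, 3.54 and 3.53 FPKM in TAC+control mice, and Gbp9 had 4.91, 6.54 and 12.36 FPKM, against 3.60, 4.39 and 3.52 FPKM. The guanylate-binding proteins Gbp4, Gbp5, Gbp6 and Gbp9 were thus lowest in replicate 1 and highest in replicate 3 of TAC+pimobendan. Iigp1, Irgm1, Gbp2, Gbp3, Gbp7 and Gvin1 had the same order of mice. The effectors Tgtp1 (2.31, 2.23 and 10.15 FPKM in TAC+pimobendan, against 2.25, 2.88 and 1.82 FPKM in TAC+control) and Tgtp2 (5.12, 4.37 and 19.91 FPKM, against 5.64, 6.31 and 5.74 FPKM) had the pattern of Igtp and Irgm2, with replicate 3 apart. Gvin1, a very large interferon-inducible GTPase, had 1.28, 3.00 and 5.43 FPKM in TAC+pimobendan mice, against 0.51, 1.26 and 0.91 FPKM in TAC+control mice. Ifi47 had 2.71, 2.09 and 4.06 FPKM, against 3.13, 1.37 and 1.45 FPKM, and Irgq, a relative outside the interferon response, had 8.11, 6.88 and 8.37 FPKM, against 8.79, 9.83 and 8.69 FPKM.

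For TAC+pimobendan minus TAC+control the log2 fold changes of these genes were 1.06 ± 0.43 for Gbp6, 1.06 ± 0.30 for Gvin1, 0.96 ± 0.33 for Gbp4, 0.80 ± 0.23 for Gbp9, 0.73 ± 0.25 for Gbp5, 0.58 for Tgtp1, 0.42 for Ifi47, 0.36 for Tgtp2 and -0.20 for Irgq, and none of the 9 was called. Gbp6, Tgtp1, Tgtp2 and Gvin1 are uncertain as single genes, since 70.3%, 79.4%, 90.3% and 98.3% of their 50-base words occur in another family gene. Among the genes below the filter, F830016B08Rik, an immunity-related GTPase by its list, had 0.42, 0.80 and 11.45 FPKM in TAC+pimobendan mice, against 0.19, 0.19 and 0.26 FPKM in TAC+control mice and at most 0.47 FPKM in sham mice. Gm12250 had 0.53, 0.55 and 2.13 FPKM, against 0.74, 0.33 and 0.38 FPKM, and Gm4070, which shares 97.7% of its words with Gvin1, had 0.99, 2.27 and 5.54 FPKM, against 0.90, 0.78 and 0.74 FPKM. Gbp10, 9930111J21Rik1 and 9930111J21Rik2 reached 1.65, 1.83 and 0.61 FPKM in TAC+pimobendan replicate 3, against at most 0.52, 0.49 and 0.33 FPKM in TAC+control mice. Gbp2b, Gbp8, Irgc1 and Gm4951 stayed at or under 0.31 FPKM in the 12 libraries.

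**Figure D4:**
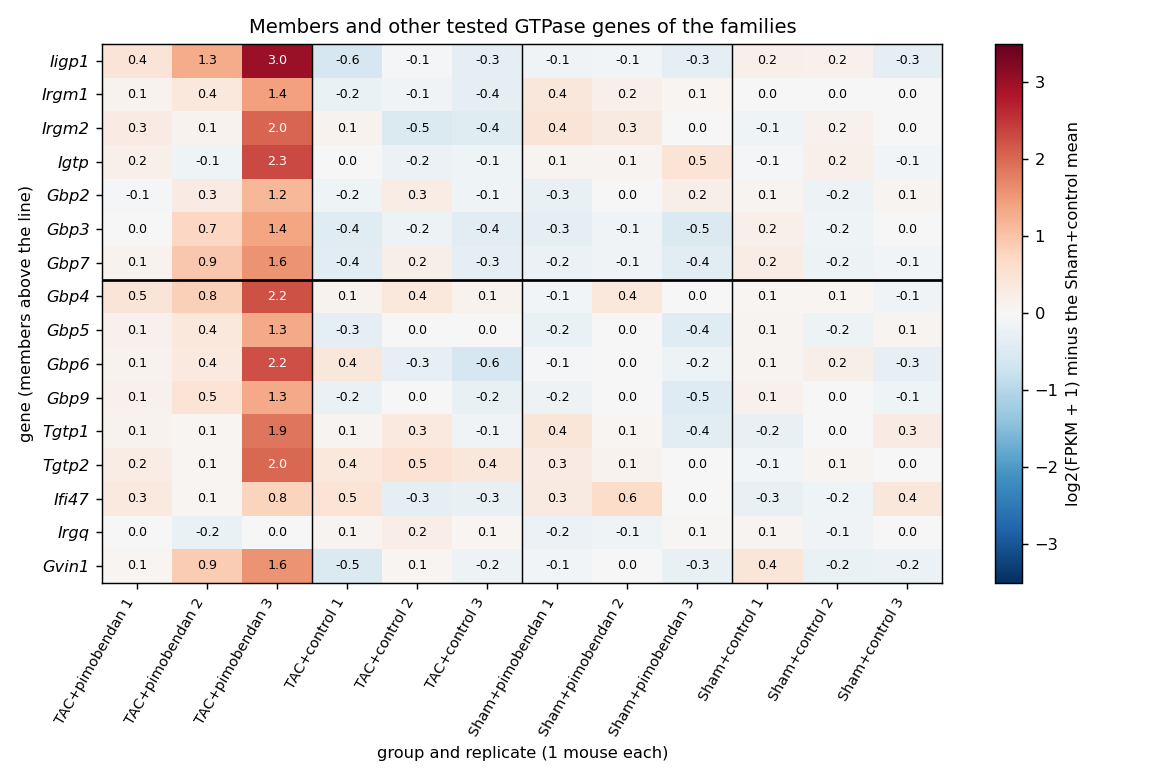
Log2(FPKM + 1) minus the Sham+control mean for the 7 members (above the line) and the 9 other tested GTPase genes (below it) in each of the 12 libraries, in red where higher and blue where lower. The column of TAC+pimobendan replicate 3 is red for all 7 members, and replicate 2 of that group is reddest for Iigp1, at 1.3.

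Upstream of the GTPases, interferon gamma was the only interferon read, and its gene Ifng was near 0. Values of type I interferons are not given here. Ifng was listed at 0.10 FPKM in TAC+pimobendan replicate 2, at 0.08 FPKM in Sham+pimobendan replicate 3 and at 0 in the other 10 libraries. The 6 tested genes of the list of ligands and receptors were all receptor genes. None of them passed between TAC+pimobendan and TAC+control (median log2 fold change 0.083). Ifngr1, the ligand-binding chain of the interferon gamma receptor, had 25.25, 24.89 and 21.67 FPKM in TAC+pimobendan mice, against 22.97, 19.85 and 19.57 FPKM in TAC+control mice (0.19 ± 0.10), Ifnar1 had 0.23 ± 0.13 and Il10rb 0.087 ± 0.081. Replicate 3 was not the highest library for these 3 receptor genes.

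Among 14 tested kinases and transcription factors of the pathway 3 passed and were higher in TAC+pimobendan than in TAC+control mice, against 3.15% of all genes, with a median of 0.40. Irf7, a transcription factor that amplifies the type I response, had 12.71, 12.01 and 25.87 FPKM in TAC+pimobendan mice, against 6.21, 6.95 and 7.06 FPKM in TAC+control mice (log2 fold change 1.12 ± 0.24, limma adjusted p = 0.0409). Irf9, the DNA-binding partner of Stat2, had 12.92, 13.77 and 23.22 FPKM, against 7.01, 7.45 and 7.52 FPKM (1.04 ± 0.23, limma adjusted p = 0.0432). Jak2, a kinase of the interferon gamma receptor, had 5.6, 7.44 and 7.81 FPKM, against 3.02, 4.54 and 3.58 FPKM (0.76 ± 0.16, limma adjusted p = 0.0409). All 3 TAC+pimobendan mice were above the TAC+control mice for these genes, as for 23.3% of all tested genes, and Irf7 and Irf9 were also high in Sham+pimobendan mice, at 14.12, 10.24 and 9.95 FPKM and at 20.29, 11.37 and 9.88 FPKM. Irf1 and Ifng are named for their place in the pathway, after their values were seen. Irf1 had 13.31, 12.64 and 19.18 FPKM in TAC+pimobendan mice, against 7.78, 12.71 and 6.94 FPKM in TAC+control mice.

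Of 7 negative regulators 1 passed, against 3.15% of all tested genes called higher, Ptpn2, a phosphatase that acts on Janus kinases, with 7.87, 8.12 and 11.56 FPKM in TAC+pimobendan mice, against 4.69, 5.28 and 4.40 FPKM in TAC+control mice (0.80 ± 0.16, limma adjusted p = 0.0409). Ptpn6 had 0.41 ± 0.13 and Pias1 0.32 ± 0.14. Of 16 genes that answer interferon gamma beside the GTPases 0 passed in limma, although all 16 estimates were above 0 (median 0.47; 14 of 16 with median-ratio scaling and 15 of 16 with quantile normalization), with the smallest p for B2m, the light chain of class I molecules (0.66 ± 0.18), and for the class II genes H2-Ab1 (0.77 ± 0.23) and H2-Eb1 (0.76 ± 0.24). H2-Ab1 was highest in TAC+pimobendan replicate 1 with 61.47 FPKM, beside 30.09 and 52.05 FPKM in replicates 2 and 3 and 24.04, 25.99 and 29.78 FPKM in TAC+control mice, an order of mice that none of the 7 members had. Of 18 genes of autophagy and vacuole attack 1 passed, a share near those 3.15%, Casp4, the caspase that senses lipopolysaccharide, with 1.13, 1.87 and 1.86 FPKM in TAC+pimobendan mice, against 0.57, 0.78 and 0.33 FPKM in TAC+control mice (0.74 ± 0.16, limma adjusted p = 0.0425). Trim21 had 0.52 ± 0.14 and the autophagy receptor Tax1bp1 0.77 ± 0.21, and the median of the list was 0.057. These lists were drawn up with earlier results known. Without TAC+pimobendan replicate 2, without replicate 3 or with the GC trend removed, 0 genes of these lists passed. With median-ratio scaling, quantile normalization, no filter or a fit of only the groups compared 0 of all tested genes did. Without replicate 1 the counts were 4 of 14, 1 of 7, 1 of 16 and 3 of 18. In that setting 1190 of all 11415 tested genes were called in either direction, so nothing is read from these counts.

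**Figure D5:**
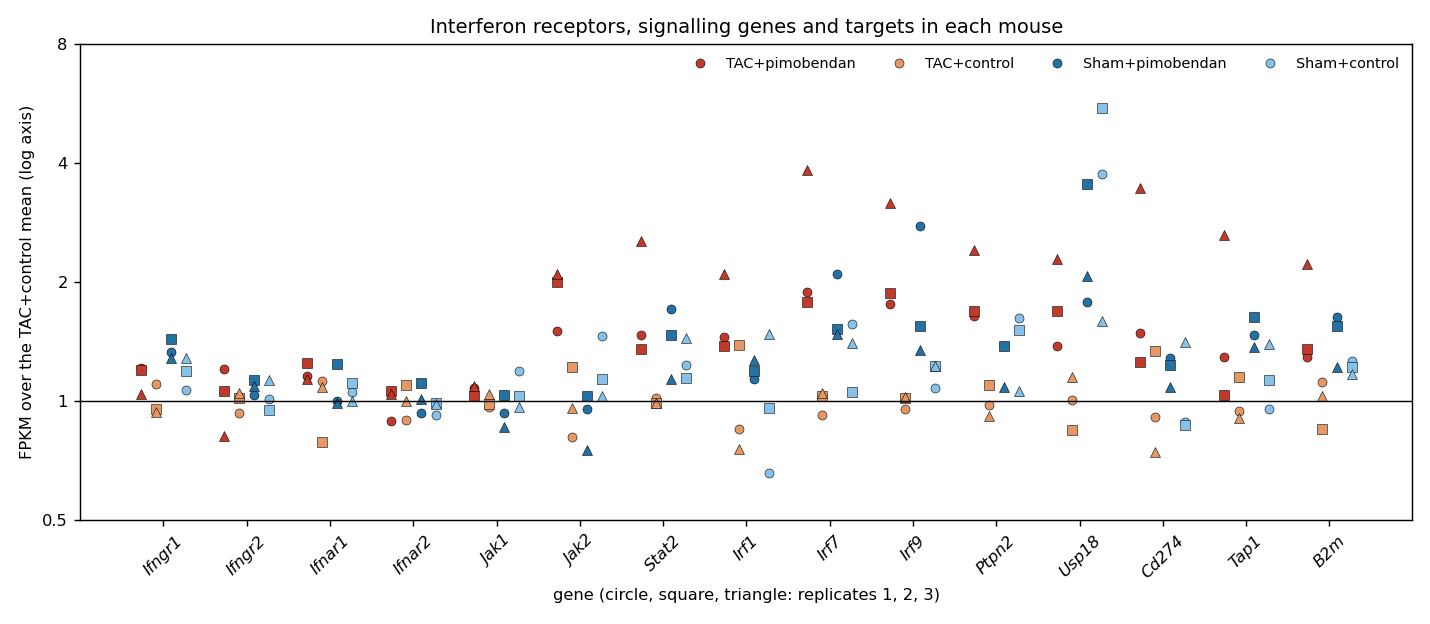
FPKM of receptors, signalling genes, regulators and targets in each mouse, divided by the gene's TAC+control mean (logarithmic vertical axis), with circles, squares and triangles for replicates 1, 2 and 3. Receptor genes and Jak1 lie near 1 in all groups, while the triangle of TAC+pimobendan is the highest point for Stat2, Irf1, Irf7, Irf9, Ptpn2, Cd274, Tap1 and B2m.

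In the tested comparisons of constriction with sham and of the drug in sham hearts none of these lists held a gene that passed. Between TAC+control and Sham+control all 14 kinases and transcription factors (median -0.21; 12 of 14 with median-ratio scaling, quantile normalization or the GC trend removed) and all 7 negative regulators (median -0.32) had estimates below 0, the lowest being Usp18, the brake on the type I receptor, at -1.33 (limma adjusted p = 0.408). It had 1.96, 1.65 and 2.24 FPKM in TAC+control mice, against 7.32, 10.76 and 3.11 FPKM in Sham+control mice. All 3 TAC+control libraries were thus below all 3 Sham+control libraries, as for 9.74% of the tested genes. Between Sham+pimobendan and Sham+control 15 of 16 interferon gamma targets had estimates above 0 (median 0.16; 14 of 16 with the GC trend removed), and Irf9 had 0.56 ± 0.23 (limma adjusted p = 0.910).

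Markers of the cells that could carry these transcripts were summed per library. Cardiomyocyte markers held 59854 to 74221 FPKM in the 12 libraries, with all 8 markers detected. Of these 8 Pln, an inhibitor of the calcium pump, passed and was higher in TAC+pimobendan than in TAC+control mice (0.50 ± 0.10, limma adjusted p = 0.0409), and Actc1, cardiac actin, passed and was lower (-0.53 ± 0.13, limma adjusted p = 0.0482). Over all 11415 tested genes 360 were called higher and 13 lower between these groups. The 5 atrial markers summed to 334, 525 and 269.8 FPKM in TAC+pimobendan mice, against 275, 174 and 139 FPKM in TAC+control mice, with 557, 248 and 232 FPKM in Sham+pimobendan mice and 224, 273 and 313 FPKM in Sham+control mice. The single atrial markers did not move together between the TAC groups. Nppa had a log2 fold change of 0.96 ± 0.34, Myl4 0.027 ± 0.22 and Myl7 -0.59 ± 0.29, and 0 of these 3 passed. The other 2, Sln and Bmp10, stayed below 1 FPKM in every library. The 7 erythroid markers summed to 1154, 2295 and 1973 FPKM in TAC+pimobendan mice, against 4212, 6719 and 4271 FPKM in TAC+control mice, with 1087, 462 and 1916 FPKM in Sham+pimobendan mice and 1563, 3075 and 2046 FPKM in Sham+control mice. Of 6 tested erythroid genes (median log2 change -1.37) 1 passed between the TAC groups, against 13 of all 11415 tested genes called lower. It was Alas2, the erythroid enzyme of haem synthesis, which was lower (-1.22 ± 0.26, limma adjusted p = 0.0409). The part of blood or atrial tissue in the members' levels was not tested. Of 12 T and NK cell markers 11 were in the table and 10 of them stayed below 1 FPKM in every library. Their sum was 1.43, 1.25 and 3.86 FPKM in TAC+pimobendan mice, against 0.95, 0.87 and 0.53 FPKM in TAC+control mice, 2.01, 2.17 and 2.70 FPKM in Sham+pimobendan mice and 1.19, 1.86 and 1.45 FPKM in Sham+control mice. TAC+pimobendan replicate 3 thus had the highest sum of T and NK markers as well as of the members, and the part of these cells in the members' levels was not tested. The 12 macrophage markers summed to 448, 369 and 486 FPKM in TAC+pimobendan mice, against 357, 337 and 363 FPKM in TAC+control mice. Their sums were 360, 536 and 431 FPKM in Sham+pimobendan mice and 375, 323 and 414 FPKM in Sham+control mice. All 12 macrophage markers had estimates above 0 between the TAC groups, with a median of 0.30 against 0.0954 over all tested genes. Of the 12, Ctss alone passed between the TAC groups, where 3.15% of all tested genes were called higher, with 13.41, 11.22 and 17.93 FPKM in TAC+pimobendan mice, against 8.11, 7.27 and 7.08 FPKM in TAC+control mice. Ctss, Pln, Actc1 and Alas2 did not pass without TAC+pimobendan replicate 2 or 3, nor under the settings under which no list gene did. Endothelial markers summed to 1280, 1664 and 1636 FPKM in TAC+pimobendan mice, against 1313, 1066 and 1201 FPKM in TAC+control mice, and 0 of 10 passed in limma at an adjusted p under 0.05. They held 1464, 1617 and 1428 FPKM in Sham+pimobendan mice and 1512, 1399 and 1262 FPKM in Sham+control mice. The 7 fibroblast markers, of which 0 passed, summed to 424, 489 and 473 FPKM in TAC+pimobendan mice, against 366, 422 and 336 FPKM in TAC+control mice. They held 382, 424 and 349 FPKM in Sham+pimobendan mice and 461, 346 and 355 FPKM in Sham+control mice. The part of macrophages, endothelial cells or fibroblasts in the members' levels was not tested.

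The genes most like the members were found by Pearson's r between log2(FPKM + 1) and the mean of the members' z-scores over the 12 libraries, among 11085 tested genes outside the members with a mean of at least 1 FPKM. They were Parp9 (r = 0.959), Gbp4 (0.952), Gbp9 (0.951), Gbp6 (0.933), Gbp5 (0.931), Vmn1r58 (0.929), Cep85l (0.925), Gvin1 (0.922), Fpgt (0.913) and Arl1 (0.908), so that 5 of the 10 belonged to the GTPase families. Parp9, an ADP-ribosyltransferase partner that is itself induced by interferon, had 6.62, 7.45 and 12.62 FPKM in TAC+pimobendan mice, against 5.00 to 7.49 FPKM in the other 9 libraries. Without TAC+pimobendan replicate 3 the r of these 10 genes was 0.541 to 0.796, and none was among the 10 most alike over the remaining 11 libraries.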

How the data were processed

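Polyadenylated RNA of 12 left ventricles was made into libraries by random priming and read on a DNA nanoball platform, per the labels' protocols. The authors deposited an FPKM value and a TPM value per gene and library, and the table has no counts. GRCm38, RSEM 1.2.12, Bowtie2 2.2.5, HISAT2 2.0.4 and DESeq2 1.4.5 appear in the submitters' processing notes, without their roles. Whether counting used strand is not given in the sources used here.

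The plan held a count model for counts and limma for FPKM, and limma applied. The 11415 genes that reached 1 FPKM in 3 or more libraries were fitted as log2(FPKM + 1) with limma 3.58.1 (limma-trend) in R 4.3.3. There was 1 mean per group, 8 residual degrees of freedom and Benjamini-Hochberg adjustment over all tested genes. Calls were made below an adjusted p of 0.05. Fold changes on this scale understate changes of low genes such as Gbp7. P-values set the difference between group means against the spread between mice, which was shared by the 4 groups and adjusted by limma across genes. The procedure was tested on simulated data.

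The members and the gene lists were chosen with earlier results of these data known. Named genes were the members, all measured genes of the GTPase families, the 3 genes of each other pathway list with the smallest p in the comparison described, and the 10 genes most like the members; others are said to be chosen after their values were seen. The values of 1 gene counted among the kinases and transcription factors are not reported here. Replicate numbers were not used to pair mice. Shared 50-base words were counted between GENCODE M21 transcripts, and GC content came from the same annotation for 99.24% of the tested genes. Alternatives were median-ratio scaling, TPM, quantile normalization, no filter, a mean of at least 1 FPKM, a pseudocount of 0.1, a fit of only the groups compared, a replicate block, robust variances and leaving out each library. Removal of each library's GC trend (lowess, span 0.3) was added after seeing the data.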

Additional observations from a re-analysis of the deposited data

Results flagged for a closer look

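For 3 members the drug's change after TAC and its change after sham had opposite signs in every mouse: each TAC+pimobendan library lay above the TAC+control mean and each Sham+pimobendan library lay below the Sham+control mean. The difference between the log2 changes was 2.10 for Iigp1, 1.36 for Gbp3 and 1.28 for Gbp7. What drew attention was these signs, which were not tested in themselves. The share of all tested genes with such signs was not counted, so nothing is read from the number of members. Every TAC+pimobendan library lay above every TAC+control library for 23.3% of the tested genes. In limma's interaction term 0 of the 7 members were called, and since its TAC arm chose the members no p is given for it. By library, the log2 difference from the control mean of the same surgery was 0.77, 1.63 and 3.34 after TAC and -0.12, -0.11 and -0.31 after sham for Iigp1. For Gbp3 it was 0.36, 1.04 and 1.71 after TAC and -0.34, -0.13 and -0.50 after sham. For Gbp7 it was 0.28, 1.10 and 1.73 after TAC and -0.20, -0.13 and -0.39 after sham. Without TAC+pimobendan replicate 3 the differences were 1.38, 1.02 and 0.93 in the same order of genes.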

How the results depend on the processing

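Between TAC+pimobendan and TAC+control the number of members called (2) became 4 with TPM, 1 with robust variances, and 0 with median-ratio scaling, quantile normalization, no filter, only the groups compared or the GC trend removed. Against Sham+pimobendan the number (3) became 1 with median-ratio scaling and 0 with quantile normalization, no filter, only the groups compared or the GC trend removed. The cause was not tested. The interaction uses all groups, so it has no fit of only the groups compared. With 1 library left out the counts ran from 0 to 4 and from 0 to 3 in these comparisons. They ran from 0 to 3 against Sham+control and for the interaction (3 of each without TAC+pimobendan replicate 1). Without that library 333 of all 11415 tested genes were called against Sham+control and 773 for the interaction. The 2 calls against TAC+control were lost without any of TAC+pimobendan 2 or 3, TAC+control 1, 2 or 3, Sham+pimobendan 1, 2 or 3, or Sham+control 2 or 3. Those against Sham+pimobendan fell to 2 without TAC+control 2, to 1 without Sham+control 3, to 0 without TAC+pimobendan 2 or 3, TAC+control 1 or 3, Sham+pimobendan 1, 2 or 3, or Sham+control 2, and numbered 3 without TAC+pimobendan 1 or Sham+control 1. Over all genes 373 calls against TAC+control became 1170 with TPM, 0 with median-ratio scaling, quantile normalization, no filter, only the groups compared or the GC trend removed, and 0 to 1190 with a library left out. Against Sham+pimobendan 558 became 734 with TPM, 356 with median-ratio scaling, 298 with quantile normalization, 0 with no filter, only the groups compared or the GC trend removed, and 0 to 1225 with a library left out.

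Median-ratio scaling and quantile normalization moved the median log2 change of all genes between TAC+pimobendan and TAC+control from 0.095 to -0.0060 and -0.021. Relative to that median Iigp1 was at 1.82, 1.81 and 1.84 in the 3 versions and Gbp2 at 0.38, 0.37 and 0.39. In the comparisons of TAC+control and of Sham+pimobendan with Sham+control 0 members were called under every alternative run, and the sign changed for Gbp2 alone. Its -0.014 for TAC+control became 0.053, 0.058 and 0.057 with median-ratio scaling, quantile normalization and the GC trend removed, and ran from -0.15 to 0.057 with a library left out. Its -0.0080 for Sham+pimobendan became 0.025 with the GC trend removed and ran from -0.11 to 0.12.

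With the replicate number as a block 0 members were called against TAC+control and 0 against Sham+pimobendan, with 1 and 0 calls over all genes. The numbers share nothing in the labels: deviations of same-numbered libraries correlated at -0.440 to 0.253 (median -0.072, 18 pairs, 4 above 0.1), against a median of 0.040 for 36 other pairs. With 3 mice per group and no counts, precision is limited by the spread between mice, and the depth behind low values such as those of Gbp7 is unknown.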
